A study of Mus musculus with 3 samples.

Results

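The 43 genes described here code for contractile proteins of heart and skeletal muscle and for proteins that serve these muscles in calcium handling, conduction, hormone production and energy supply. They were chosen by name, after their values on these same arrays were known, so their levels are given as a description. Of the 43 genes, 41 had a named probe (63 probes in all) among the 16998 genes named on the array, and no probe was named for Myh3 and Smpx. The 41 genes were sorted by the muscle in which each is best known, into 7 atrial genes, 4 ventricular genes, 11 genes of heart muscle in general, 9 genes of skeletal muscle and 10 genes shared by striated muscles.

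The samples came from 3 gut primordia of ICR mouse embryos taken at E11.5, namely esophagus, stomach and intestine, and each organ was measured on 1 array. The labels name no mutation and no treatment, do not give the number of embryos behind a sample, and speak of stomach in the extraction text of all 3. No value has a replicate, so no test across samples was possible and precision is limited by the number of arrays. All 3 arrays lay on 1 slide, where the organ and the position cannot be told apart.

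Striated muscle contracts when myosin heads of the thick filament pull on actin of the thin filament, a step that calcium switches on through the troponin complex. Atrium, ventricle and skeletal muscle build this machinery from different copies of the same genes, although the embryonic heart also uses several copies that are later typical of skeletal muscle. The muscle layer of the early mouse gut is smooth muscle, which has its own myosin and actin genes, while the esophagus of later mouse embryos acquires skeletal muscle.

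A level is the log2 processed signal of a probe minus the 75th percentile of its array. Levels of different probes cannot be set against each other, and each comparison is of the same probe between organs. A difference is written as a fold, or in log2 units where so stated, and as "at least" where the signal in the lower organ was not well above background. The probes of near-identical copies, Myh6 and Myh7, Actc1 and Acta1, and the heavy chain Myh8, may read each other's RNA, and those values are uncertain in that respect. In whole organs, fewer cells of a type and less RNA per cell cannot be told apart.

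Sequences just before the start of transcription are shown for the gene with the largest difference between esophagus and stomach in each class, among genes with a sequence, so that the windows behind the largest differences can be read side by side. The 250 bases before the start were taken from RefSeq, build GRCm38.p6, which held 39 of the 43 genes, and Sln, Cox6a2, Tnni2 and Tnnt3 are named only. Capitals mark matches on either strand to 5 motifs. These were the CArG box bound by serum response factor, the site of the MEF2 factors, the GATA motif (AGATAA or, with another last letter, AGATAG, each also with T as its first letter), the M-CAT motif of the TEAD factors (CATTCC) and the TATA motif (TATAAA). Matches of different motifs did not overlap in the printed windows. The windows run 5′ to 3′. Myh6 (atrial) is at chr14:54966608-54966857 (minus strand) and Myl3 (ventricular) at chr9:110763428-110763677 (plus strand). Mybpc3 (heart muscle in general) is at chr2:91117894-91118143 (plus strand), Myl1 (skeletal) at chr1:66945057-66945306 (minus strand) and Csrp3 (shared) at chr7:48848052-48848301 (minus strand). For Myh6, Mybpc3 and Myl1 the listed start does not lie at the edge of the annotated gene.
Myh6: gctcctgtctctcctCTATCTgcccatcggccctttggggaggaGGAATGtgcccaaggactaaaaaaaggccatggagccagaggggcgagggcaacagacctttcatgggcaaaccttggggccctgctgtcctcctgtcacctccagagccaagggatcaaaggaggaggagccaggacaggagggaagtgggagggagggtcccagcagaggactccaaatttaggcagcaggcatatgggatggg
Myl3: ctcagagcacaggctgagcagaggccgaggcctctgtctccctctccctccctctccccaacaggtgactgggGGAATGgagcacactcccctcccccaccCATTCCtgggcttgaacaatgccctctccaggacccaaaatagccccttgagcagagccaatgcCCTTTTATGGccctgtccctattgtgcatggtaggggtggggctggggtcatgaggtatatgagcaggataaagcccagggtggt
Mybpc3: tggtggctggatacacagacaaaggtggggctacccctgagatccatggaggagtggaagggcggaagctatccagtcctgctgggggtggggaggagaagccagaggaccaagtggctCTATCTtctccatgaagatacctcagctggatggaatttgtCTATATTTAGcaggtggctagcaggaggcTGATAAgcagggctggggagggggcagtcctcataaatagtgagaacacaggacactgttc
Myl1: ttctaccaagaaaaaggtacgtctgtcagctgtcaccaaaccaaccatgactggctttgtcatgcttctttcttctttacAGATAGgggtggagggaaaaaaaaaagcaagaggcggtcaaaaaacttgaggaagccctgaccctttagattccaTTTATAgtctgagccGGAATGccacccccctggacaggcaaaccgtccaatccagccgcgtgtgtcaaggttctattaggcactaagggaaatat
Csrp3: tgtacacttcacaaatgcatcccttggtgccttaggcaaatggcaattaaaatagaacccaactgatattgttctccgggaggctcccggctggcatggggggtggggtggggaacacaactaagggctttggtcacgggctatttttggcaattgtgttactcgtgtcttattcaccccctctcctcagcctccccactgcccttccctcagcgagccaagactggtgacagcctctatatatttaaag

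The Myl3 window held a CArG box from base 85 to base 76 before the start, and the Mybpc3 window held a MEF2 site from base 90 to base 81. The Csrp3 window held none of the 5 motifs. Over the 39 windows, the CArG box stood in 5 (Actc1, Acta1, Myl3, Myl7 and Myom1), which is 12.8%, and in 1.40% of all 27025 promoters of the same length. The MEF2 site stood in another 5 (Ttn, Mybpc3, Casq2, Myoz2 and Myh8), also 12.8%, and in 3.01% of all promoters. GATA was found in 38.5% of the windows and 27.1% of all promoters, M-CAT in 28.2% and 12.6%, and TATAAA in 23.1% and 13.0%. The E-box CANNTG of the myogenic factors, which was searched on both strands and is not capitalised, stood in 84.6% of the windows and 66.0% of all promoters. A match describes letters and not a bound site, and no test was made because the genes were chosen for a shared role.

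Esophagus held the highest signal for most of these genes. Of the 41 genes, 29 were at least 4-fold higher in esophagus than in stomach, where 1.58% of the 13740 genes compared were, and 0 were at least 4-fold lower, where 0.684% were. The other differences or bounds were between 2-fold and 4-fold for 3 genes and within 2-fold for 7, and 2 genes (Pln and Ckm) were not well above background in either organ. Against intestine, 29 genes were at least 4-fold higher in esophagus, where 3.7% of 14462 genes were, and 0 were at least 4-fold lower, where 1.75% were. Between stomach and intestine, stomach was at least 4-fold higher for Myh7 and Myh8 and at least 4-fold lower for Myl3 and Popdc2. Over 14384 genes, 1.24% were that much higher in stomach and 1.38% that much lower.

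**Figure D1:**
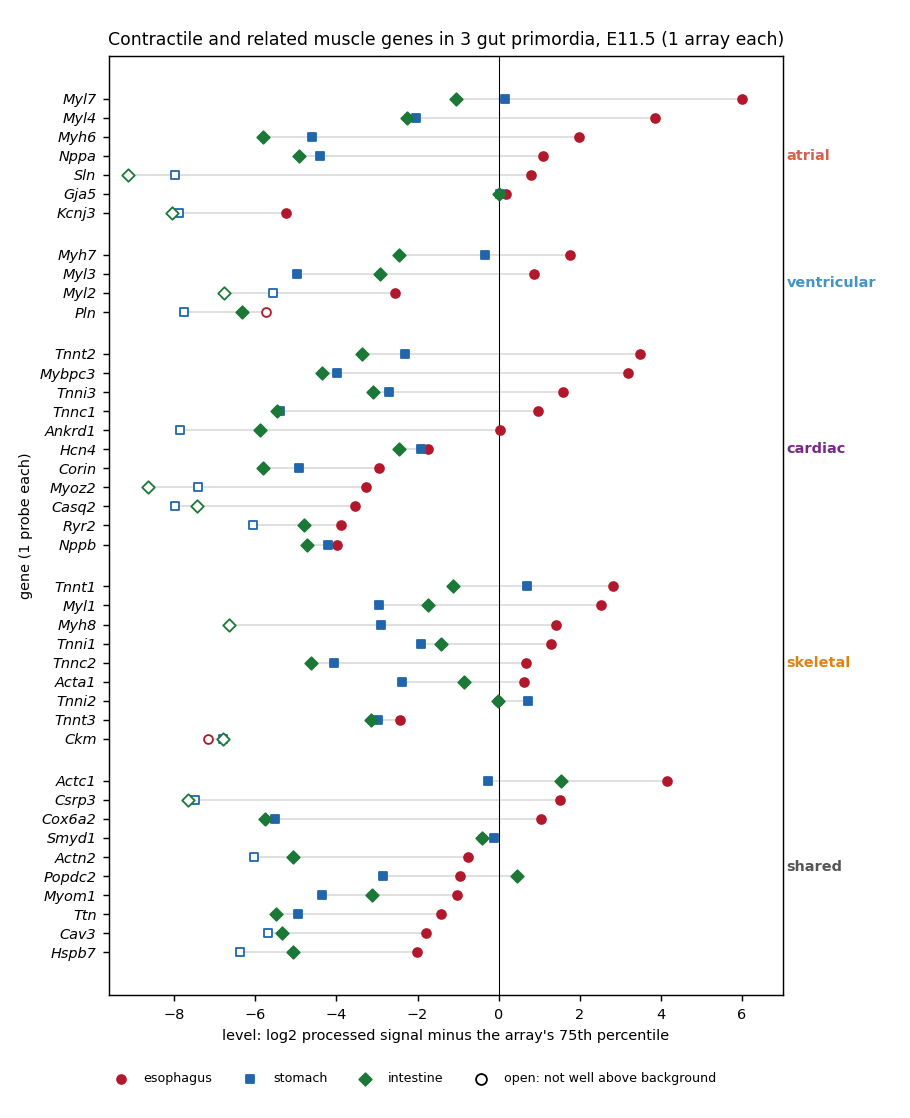
Level of each gene in esophagus, stomach and intestine, as log2 processed signal minus the 75th percentile of the array (1 array per organ). Filled points are well above background and open points are not, and where organs nearly coincide, as for Smyd1 and Gja5, points cover each other. Most esophagus points lie far to the right of the points of the other organs.

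The median log2 difference between esophagus and stomach was 3.83 over 39 genes, 11 of them entered as bounds, beside −0.15 over all genes. Between esophagus and intestine it was 3.92 over 39 genes, 7 of them bounds, beside −0.13 over all genes. With normexp background correction, which adds an offset of 50 to each signal, these medians were 2.15 and 2.54, and 8 of the 29 genes against stomach and 6 of the 29 against intestine no longer reached 4-fold. Those lost against stomach were Myh7, Myl2, Casq2, Myoz2, Ttn, Hspb7, Cav3 and Myom1, and those lost against intestine were Myl2, Casq2, Myoz2, Hspb7, Myom1 and Corin. Between stomach and intestine the median was 0.26 over 32 genes, beside 0.02 over all genes, and its sign turned under other scalings of the arrays (−0.06 with each array centred on its median and −0.81 with centring on spike-in controls). Among the 20 genes with the largest differences measured on both arrays, 11 were of this group for esophagus over stomach, 10 for esophagus over intestine and 0 for stomach over intestine. Signal was well above background for 39 of the 41 genes in esophagus (95.1%, beside 78.2% of all genes), 28 in stomach (68.3%, beside 78.7%) and 33 in intestine (80.5%, beside 84.0%).

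**Figure D2:**
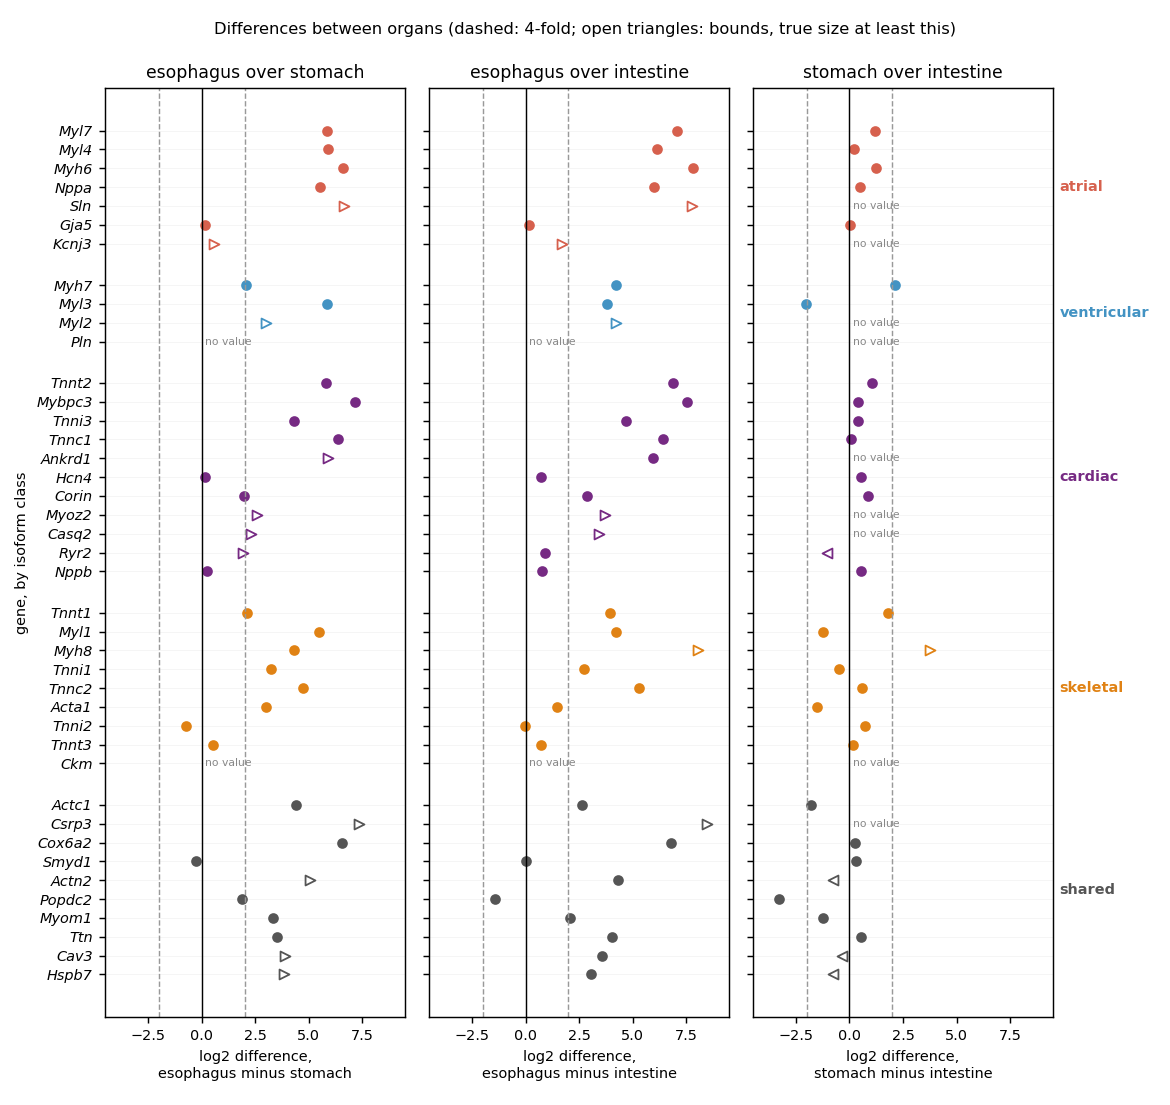
Log2 difference of each gene for esophagus minus stomach, esophagus minus intestine and stomach minus intestine, by class, where a positive value is higher in the first-named organ. Bounds are drawn apart from differences measured on both arrays. In the panels with esophagus most genes lie past 2 log2 units (4-fold), while in the third panel most lie between −2 and 2.

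Among the heavy chains, the motor proteins of the thick filament, the alpha cardiac chain differed most from stomach. Myh6, the alpha chain, had levels of 1.99 in esophagus, with −4.59 in stomach and −5.82 in intestine. It was 95.7-fold higher in esophagus than in stomach and 224-fold higher than in intestine. Myh7, the beta chain of ventricle and slow skeletal fibres, had levels of 1.76 in esophagus, against −0.33 in stomach and −2.45 in intestine. It was 4.25-fold higher in esophagus than in stomach, 18.5-fold higher in esophagus than in intestine, and 4.35-fold higher in stomach than in intestine. Its difference between stomach and intestine was under 4-fold in 4 of 8 other settings, down to 1.05 log2 units, and that between esophagus and stomach in 3 of 8. A second Myh7 probe was 3.79-fold higher in esophagus than in stomach. For Myh6, which lies next to Myh7, stomach exceeded intestine 2.34-fold. Myh8, the perinatal skeletal chain, had levels of 1.40 in esophagus and −2.89 in stomach, and its signal in intestine (−6.64) was not well above background. It was 19.6-fold higher in esophagus than in stomach, at least 264-fold higher in esophagus than in intestine, and stomach exceeded intestine at least 13.4-fold. A second Myh8 probe was not well above background in any organ.

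The light chains stabilise and regulate the myosin neck, and all 5 measured ones were higher in esophagus. Myl7, the atrial regulatory chain, had levels of 6.01 in esophagus, with 0.16 in stomach and −1.05 in intestine, which is 57.4-fold higher in esophagus than in stomach and 133-fold higher than in intestine. Myl4, the atrial and embryonic essential chain, had levels of 3.86 in esophagus, against −2.04 in stomach and −2.26 in intestine, or 59.7-fold and 69.6-fold higher in esophagus. Myl2, the ventricular regulatory chain, had a level of −2.55 in esophagus and was not well above background in stomach (−5.57) or intestine, so that it was at least 8.11-fold higher in esophagus than in stomach. Thus both the atrial and the ventricular regulatory chain were seen in esophagus, the ventricular one without a measured level in stomach. Myl1, the essential chain of fast skeletal muscle, which early heart also expresses, had levels of 2.51 in esophagus, with −2.95 in stomach and −1.73 in intestine. It was 44.0-fold higher in esophagus than in stomach and 18.9-fold higher than in intestine.

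The ventricular essential chain Myl3 depended on the probe. Its brighter probe had levels of 0.88 in esophagus, against −4.98 in stomach and −2.93 in intestine, 58.0-fold and 14.0-fold higher in esophagus. Its second probe differed by 0.57 log2 units between esophagus and stomach and by 0.34 between esophagus and intestine. The brighter probe was also 4.14-fold higher in intestine than in stomach, a direction that turned to a log2 difference of 0.07 for stomach minus intestine with another background correction. Mybpc3, the cardiac myosin-binding protein C, had levels of 3.18 in esophagus, with −3.98 in stomach and −4.36 in intestine. At 144-fold over stomach and 187-fold over intestine, it had the largest difference from stomach among genes measured on both arrays by the probe used for each gene, while a second Myl4 probe was 169-fold higher in esophagus than in stomach.

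On the thin filament, the cardiac troponins stood far higher in esophagus, whereas the skeletal ones were split. Tnnt2, the cardiac troponin T that ties the complex to tropomyosin, had levels of 3.49 in esophagus, against −2.31 in stomach and −3.37 in intestine. It was 55.5-fold higher in esophagus than in stomach and 116-fold higher than in intestine. Tnnc1, the calcium sensor of heart and slow skeletal muscle, had levels of 0.97 in esophagus, with −5.39 in stomach and −5.45 in intestine, with folds of 82.2 and 85.8. Tnni3, the cardiac inhibitory subunit, had levels of 1.60 in esophagus, against −2.70 in stomach and −3.09 in intestine, with folds of 19.7 and 25.8. Between stomach and intestine, Tnnc1 and Tnni3 differed by less than 2-fold, and Tnnt2 was 2.09-fold higher in stomach.

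Of the skeletal troponins, the slow forms and the fast calcium sensor were higher in esophagus. Tnni1, the slow inhibitory subunit that the fetal heart also uses, had levels of 1.30 in esophagus, with −1.92 in stomach and −1.42 in intestine, and was 9.31-fold higher in esophagus than in stomach. Tnnt1, the slow troponin T, had levels of 2.81 in esophagus, against 0.69 in stomach and −1.11 in intestine, which is 4.34-fold over stomach and 15.1-fold over intestine. Tnnc2, the fast calcium sensor, had levels of 0.67 in esophagus, with −4.05 in stomach and −4.62 in intestine, which is 26.4-fold and 39.2-fold higher in esophagus. The fast forms of the other subunits did not follow. Tnnt3, the fast troponin T, had levels of −2.43 in esophagus, against −2.97 in stomach and −3.15 in intestine, a 1.46-fold difference between esophagus and stomach. Tnni2, the fast inhibitory subunit, had levels of −0.03 in esophagus, with 0.72 in stomach and −0.0040 in intestine, and stomach exceeded esophagus 1.68-fold. Tnni2 and Tnnt3 lie side by side with 1 protein-coding gene, Lsp1, between them.

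The sarcomeric actins differed less from intestine than from stomach. Actc1, the cardiac actin, had levels of 4.15 in esophagus, against −0.25 in stomach and 1.54 in intestine. It was 21.1-fold higher in esophagus than in stomach, 6.12-fold higher in esophagus than in intestine, and 3.45-fold higher in intestine than in stomach. Acta1, the skeletal actin, had levels of 0.61 in esophagus, with −2.38 in stomach and −0.86 in intestine, with folds of 7.98 over stomach and 2.78 over intestine. Both actins thus had their lowest level in stomach, and both are near copies of smooth muscle actins.

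**Figure D3:**
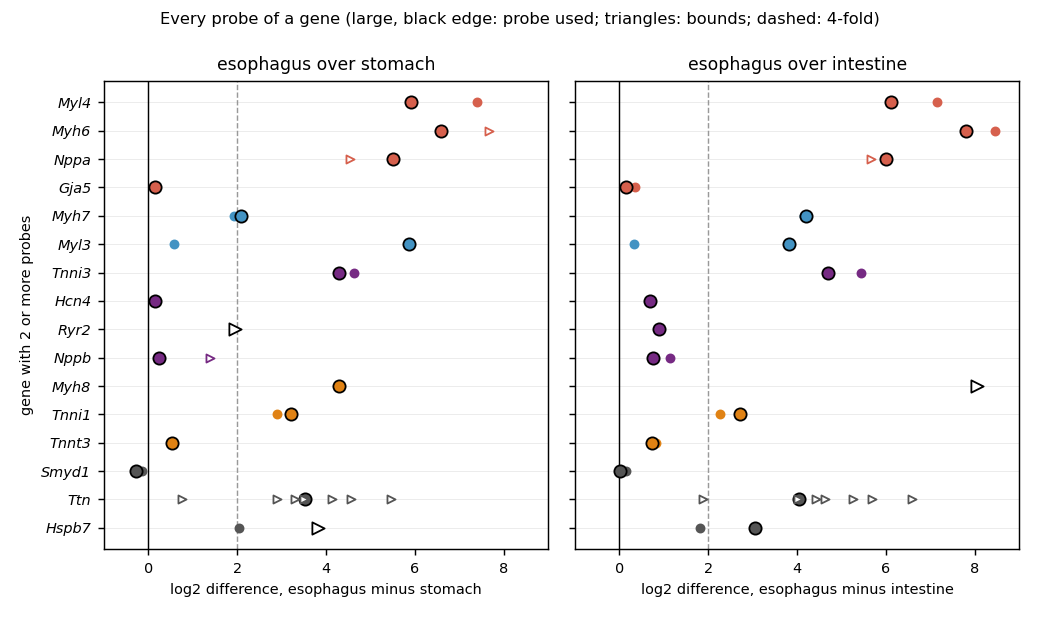
Log2 difference of each probe for esophagus minus stomach and esophagus minus intestine, for genes with several probes (each point is 1 probe). Bounds are drawn as triangles, and probes without a value are not drawn. Probes of Gja5, Smyd1, Tnnt3, Myh7 and Tnni1 lie close together, while those of Myl3 and Ttn lie far apart.

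The Z-disc and the M-band anchor the filaments, and titin spans between them. Csrp3, a muscle LIM protein of the Z-disc, had a level of 1.51 in esophagus and was not well above background in stomach (−7.49) or intestine (−7.65). It was at least 163-fold higher in esophagus than in stomach and at least 357-fold higher than in intestine. Actn2, the alpha-actinin of the Z-disc, had levels of −0.76 in esophagus, −6.03 in stomach (not well above background) and −5.07 in intestine. It was at least 33.8-fold higher in esophagus than in stomach and 19.8-fold higher than in intestine. Its signal was thus measured in intestine and not in stomach.

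Ttn, titin, was read by 8 probes, of which 7 were at least 4-fold higher in esophagus than in stomach. The probe used, whose mean level across the organs was highest, had levels of −1.43 in esophagus, against −4.95 in stomach and −5.48 in intestine, and the differences or bounds of the 8 probes ran from 0.75 to 5.46 log2 units. Myom1, myomesin of the M-band, had levels of −1.04 in esophagus, with −4.35 in stomach and −3.11 in intestine, or 9.92-fold over stomach and 4.23-fold over intestine. Its log2 difference from stomach was 1.40 with normexp, and that from intestine was under 4-fold in 4 of 8 other settings, down to 0.81. Myoz2, a calcineurin-binding Z-disc protein, had a level of −3.27 in esophagus, at least 5.93-fold over stomach. Smyd1, a methyltransferase that serves myosin assembly, had levels of −0.40 in esophagus, against −0.11 in stomach and −0.40 in intestine. Its 2 probes were within 0.29 log2 units of no difference between esophagus and stomach (−0.29 and −0.14).

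Proteins of calcium handling and of the membrane were dim or split. Sln, sarcolipin, a regulator of the calcium pump in atrium and skeletal muscle, had a level of 0.80 in esophagus and was not well above background elsewhere. It was at least 99.5-fold higher in esophagus than in stomach and at least 218-fold higher than in intestine. Casq2, the calcium store of the cardiac reticulum, had a level of −3.54 in esophagus, at least 4.9-fold over stomach. Ryr2, the cardiac calcium release channel, had levels of −3.89 in esophagus, −6.04 in stomach (not well above background) and −4.79 in intestine, or 1.86-fold over intestine. The second Ryr2 probe was not well above background in any organ. Pln, phospholamban, was well above background in intestine alone (−6.34), where no fold could be bounded. Cav3, the muscle caveolin, had levels of −1.79 in esophagus, −5.68 in stomach (not well above background) and −5.34 in intestine, at least 14.8-fold over stomach and 11.7-fold over intestine.

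Of the conduction and rhythm genes, none was measured past 4-fold between esophagus and another organ. Gja5, a connexin of atrium and conduction tissue that arteries also express, had levels of 0.18 in esophagus, with 0.03 in stomach and 0.02 in intestine. Hcn4, the pacemaker channel, had levels of −1.75 in esophagus, against −1.91 in stomach and −2.45 in intestine, while a second Hcn4 probe was not well above background in any organ. Kcnj3, an atrial potassium channel subunit, had a level of −5.25 in esophagus and was not well above background elsewhere, at least 1.5-fold over stomach. Popdc2, a membrane protein of heart and skeletal muscle, stood out by its intestine level, with −0.94 in esophagus, with −2.84 in stomach and 0.46 in intestine. It was 3.73-fold higher in esophagus than in stomach, 2.65-fold higher in intestine than in esophagus, and 9.90-fold higher in intestine than in stomach.

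The natriuretic peptides are hormones of heart muscle, and their genes are neighbours with no protein-coding gene between them. Nppa, the atrial peptide, had levels of 1.09 in esophagus, against −4.41 in stomach and −4.92 in intestine, or 45.3-fold over stomach and 64.5-fold over intestine. Nppb, the brain natriuretic peptide, had levels of −3.99 in esophagus, with −4.22 in stomach and −4.73 in intestine, or 1.17-fold over stomach and 1.68-fold over intestine. Its second probe was not well above background in stomach and was at least 1.38 log2 units higher in esophagus. Corin, the protease that activates the atrial peptide, had levels of −2.94 in esophagus, against −4.92 in stomach and −5.80 in intestine, which is 3.95-fold and 7.28-fold higher in esophagus. The pair Nppa and Nppb was chosen for its windows after its values were seen, since neighbours with such unlike differences can be read side by side. Nppa is at chr4:148000472-148000721 (plus strand) and Nppb at chr4:147985650-147985899 (plus strand), where the listed start does not lie at the edge of the annotated gene, and capitals mark the same motifs.
Nppa: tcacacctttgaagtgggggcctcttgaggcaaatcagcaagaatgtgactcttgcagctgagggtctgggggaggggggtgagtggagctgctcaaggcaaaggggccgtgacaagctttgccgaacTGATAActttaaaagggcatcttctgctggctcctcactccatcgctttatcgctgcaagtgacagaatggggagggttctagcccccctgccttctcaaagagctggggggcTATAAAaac
Nppb: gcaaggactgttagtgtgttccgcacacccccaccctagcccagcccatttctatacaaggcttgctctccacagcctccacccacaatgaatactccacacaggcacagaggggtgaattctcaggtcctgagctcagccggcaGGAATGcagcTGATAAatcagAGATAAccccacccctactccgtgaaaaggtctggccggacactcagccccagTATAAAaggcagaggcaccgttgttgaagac

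Both windows held GATA motifs, from base 122 to base 117 in Nppa and from base 95 to base 90 and base 84 to base 79 in Nppb, and both held TATAAA. An M-CAT motif was found in the Nppb window alone. Nothing about a factor can be read from these letters.

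Nppa and Hspb7, a small heat shock protein of heart and skeletal muscle, had probes printed at 10 places on each array, which shows the spread of 1 reading and not that between embryos. The brighter Nppa probe had a level of 1.09 ± 0.059 in esophagus (SD over 10 spots), −4.41 ± 0.24 in stomach (10 spots) and −4.92 ± 0.23 in intestine (7 spots). Its spots in stomach reached from −4.69 to −3.98 and those in intestine from −5.16 to −4.47, so these organs overlapped and esophagus stood apart. The Hspb7 probe had a level of −2.01 ± 0.057 in esophagus (9 spots), −6.37 ± 0.51 in stomach (10 spots, 0 well above background) and −5.07 ± 0.073 in intestine (10 spots). By this probe Hspb7 was at least 14.2-fold higher in esophagus than in stomach and 8.36-fold higher than in intestine, and by a second probe, printed once, 4.09-fold and 3.51-fold higher. Over the 245 probes printed 10 times, the median SD between spots was 0.10 in esophagus, with 0.093 in stomach and 0.082 in intestine.

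**Figure D4:**
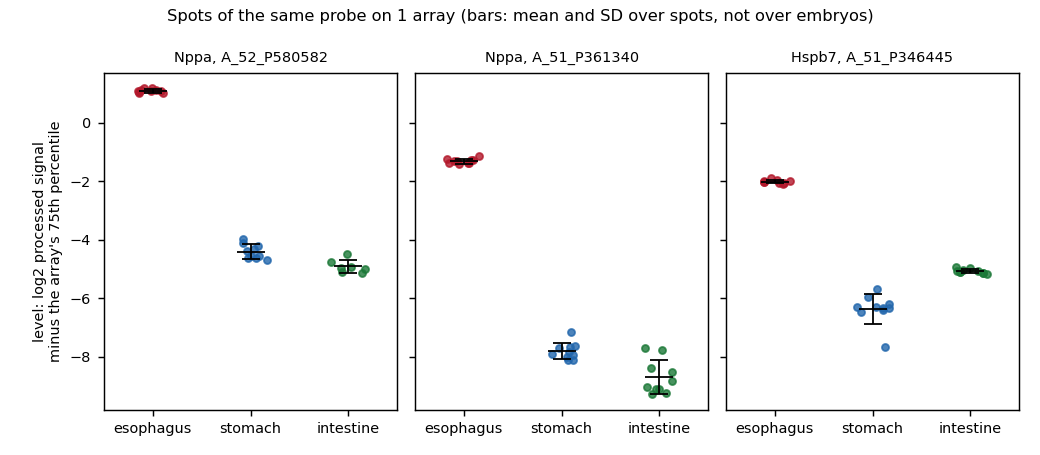
Level of each spot of the 2 Nppa probes and of 1 Hspb7 probe in esophagus, stomach and intestine, with mean and SD over the spots of 1 array. Esophagus spots stand apart in all 3 panels, and Hspb7 spots are higher in intestine than in stomach, where none was well above background.

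Genes of energy supply and stress response completed the picture. Cox6a2, the cytochrome oxidase subunit of heart and skeletal muscle, had levels of 1.04 in esophagus, against −5.52 in stomach and −5.75 in intestine, or 94.5-fold and 111-fold higher in esophagus. Ankrd1, a stress-responsive cofactor of heart muscle, had levels of 0.04 in esophagus, −7.85 in stomach (not well above background) and −5.89 in intestine. It was at least 58.8-fold higher in esophagus than in stomach and 60.9-fold higher than in intestine. Ckm, the muscle creatine kinase of mature muscle, was not well above background in any organ.

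By class, the median log2 difference between esophagus and stomach was 5.84 for the atrial genes (5 of 7 at least 4-fold higher) and 3.02 for the ventricular ones (3 of the 3 with a value, of which Myl3 alone passed with normexp). It was 2.57 for heart muscle in general (7 of 11), 3.11 for skeletal muscle (6 of 8 with a value) and 3.86 for shared genes (8 of 10). Against intestine the medians were 6.12 for atrial, 4.21 for ventricular, 3.70 for general heart, 3.32 for skeletal and 3.30 for shared genes. Some of these medians moved by over 1.5 times with normexp, to 3.48 for atrial, 1.92 for ventricular, 0.54 for general heart and 1.37 for shared genes against stomach, and to 1.85 for general heart genes against intestine. With spike-in centring the medians against intestine were 2.74 for ventricular, 2.43 for general heart, 2.05 for skeletal and 2.04 for shared genes. The median of the general heart genes against stomach was 4.30 with no filter on dim probes, and the classes were not tested against each other. Genes within 2-fold between esophagus and stomach were found in every class but the ventricular one, among them Gja5, Hcn4, Tnnt3, Tnni2 and Smyd1. Just inside the 4-fold limit against stomach lay Myh7 (4.25-fold) and Tnnt1 (4.34-fold), and just outside lay Corin (3.95-fold) and Popdc2 (3.73-fold).

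Other genes of striated muscle, from lists made by role with earlier results known, stood higher in esophagus in part. Of 33 further heart sarcomere and calcium genes with a probe, 12 of 30 with a value were at least 4-fold higher in esophagus than in stomach and 0 lower, with a median log2 difference of 1.28. Of all genes compared, 1.58% were that much higher and 0.684% that much lower. With normexp the median of these heart genes was 0.48. Tcap, the titin cap, was 27.3-fold higher, Nebl, the cardiac nebulette, 21.6-fold and Lrrc10 9.45-fold. Bmp10, a growth factor of the embryonic heart trabeculae, was not well above background in any organ. Of 39 further skeletal muscle genes with a probe, 14 of 33 with a value were at least 4-fold higher and 0 lower, with a median of 1.60 (0.49 with normexp). Pgam2, the muscle phosphoglycerate mutase, was 23.4-fold higher, Unc45b, a myosin chaperone, 13.5-fold, and Chrng, the fetal acetylcholine receptor subunit, at least 26.1-fold.

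Some regulators of both muscles also stood higher in esophagus, while others were lower. Of 13 skeletal muscle regulators with a value, 5 were at least 4-fold higher in esophagus than in stomach. At the 2-fold limit 8 were higher and 2 lower, with a median log2 difference of 1.79 (0.63 with normexp). Myog, myogenin, had levels of 0.23 in esophagus, with −4.97 in stomach and −5.72 in intestine, and Myod1 had levels of −2.36, −4.94 and −5.21 in the same organs. Tbx1 was 23.3-fold higher in esophagus than in stomach and Pax7 4.37-fold, while Myf5 was not well above background in any organ. Of 23 cardiac regulators, 3 were at least 4-fold higher and 1 lower, with a median of 0.41 (0.10 with normexp). The differences or bounds of these 23 ran from −2.31 to 3.96 log2 units. At the 2-fold limit 4 of these were higher in esophagus than in stomach and 5 lower. Over all 13737 genes with a value, 784 were at least 2-fold higher in esophagus than in stomach and 569 lower. At the 4-fold limit 1.58% of all genes compared were higher and 0.684% lower. Tbx20, a factor of heart muscle, had levels of −0.32 in esophagus, against −3.23 in stomach and −4.45 in intestine, and Tbx5, which heart and lung share, was 15.6-fold higher in esophagus than in stomach. Nkx2-5, a core heart factor that the stomach outlet also expresses, had levels of −0.14 in esophagus, with 0.99 in stomach and −2.96 in intestine. Gata4 had levels of −3.23 in esophagus, against −2.82 in stomach and −4.06 in intestine. Whether heart tissue or skeletal muscle entered the esophagus sample, and their part in the result, was not tested.

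Markers of other tissues near the esophagus were set beside these values. Of 9 trachea and lung markers, 9 were well above background in esophagus, 6 in stomach and 5 in intestine, with summed levels (log2 of the summed signal) of 3.68, 1.68 and 0.51. Such a sum is carried by the brightest probes of a list, and sums of different lists cannot be set against each other. Nkx2-1, which marks trachea and lung, had a level of −1.16 in esophagus and was not well above background in stomach or intestine. Of the 9 trachea and lung markers, 5 were at least 4-fold higher in esophagus than in stomach and 5 than in intestine. Of all genes compared, 1.58% and 3.7% were that much higher. The median log2 difference of the 9 markers was 2.99 against stomach (0.99 with normexp) and 4.12 against intestine (2.10 with normexp). Bounds made up 3 and 4 of the 9 values. All 12 smooth muscle markers with a probe were well above background in all 3 organs. Their summed levels were 7.46 in esophagus, 6.42 in stomach and 6.30 in intestine. Their median log2 difference between esophagus and stomach was 1.03, with 2 markers at least 4-fold higher in esophagus and 5 within 2-fold. Myh11 had the largest of these differences, 7.48-fold higher in esophagus than in stomach. Of 9 epicardium and mesothelium markers, 9 were well above background in esophagus, 9 in stomach and 8 in intestine, with summed levels of 4.27, 4.89 and 5.86. Their median log2 difference between esophagus and stomach was −0.53, with 1 marker at least 2-fold higher in esophagus and 3 at least 2-fold lower. Of all 13737 genes with a value, 784 were that much higher and 569 that much lower. The higher marker was Tbx18, which epicardium expresses, at 22.3-fold over stomach. Wt1 had levels of 0.40 in esophagus, against 0.99 in stomach and 0.48 in intestine. The 8 endocardium and valve markers were well above background in all 3 organs, with summed levels of 2.21 in esophagus, with 1.46 in stomach and 2.54 in intestine. The part of these tissues in the result was not tested.

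Liver, blood, nerve and cartilage markers were set out in the same way. Of 9 liver markers, 8 were well above background in esophagus, 8 in stomach and 9 in intestine, with summed levels of 3.38, 1.86 and 5.98, so the highest was in intestine. The 8 erythroid markers had summed levels of 8.43 in esophagus, against 8.91 in stomach and 8.40 in intestine, and the 7 enteric nerve markers had 3.84, 3.97 and 3.60. Of these 7, 6 were at least 2-fold lower in esophagus than in stomach, with a median log2 difference of −1.54. Ednrb, the endothelin receptor of their precursors, was 1.03 log2 units higher. Of all 13737 genes with a value, 569 were at least 2-fold lower in esophagus than in stomach and 784 higher. The 4 cartilage markers with a value had a median log2 difference of 1.09 between esophagus and stomach and 1.01 between esophagus and intestine. The median against intestine was 0.15 in the deposited table and −0.26 with spike-in centring. Against intestine, 2 of these markers were at least 2-fold higher in esophagus and 1 was at least 2-fold lower. Of all 13905 genes with a value, 1666 were that much higher and 1215 that much lower. The summed level of the 41 muscle genes was 7.40 in esophagus, with 3.38 in stomach and 3.44 in intestine. Myl7, the brightest of them in esophagus (6.01), weighed most in the esophagus sum.

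**Figure D5:**
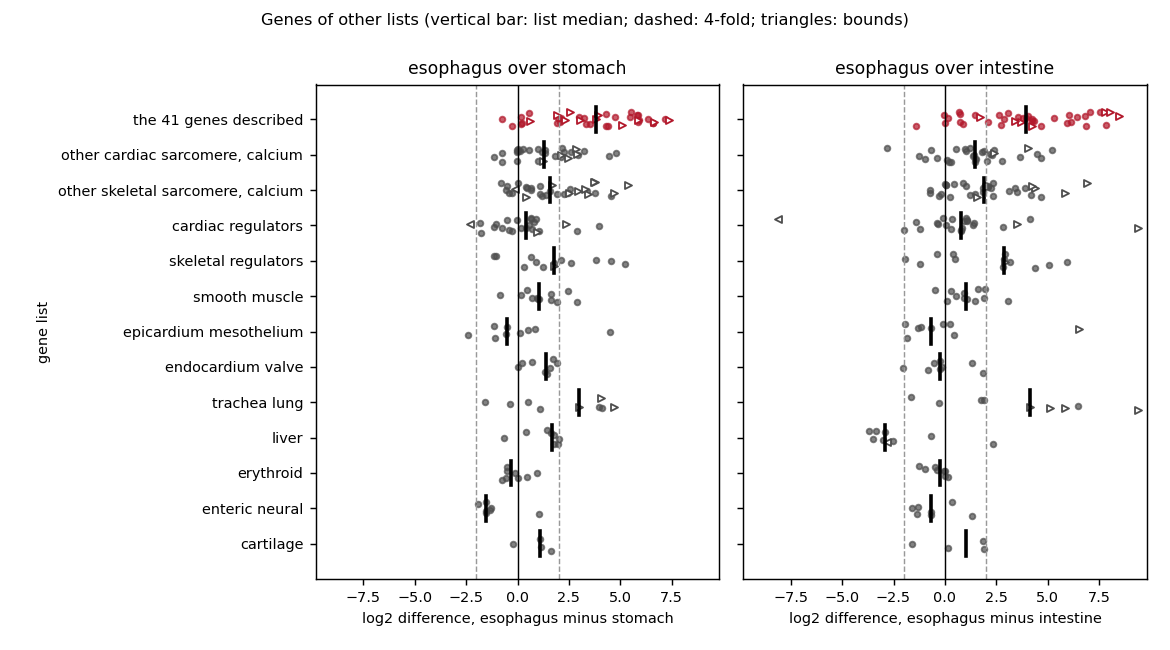
Log2 difference of each of the 41 genes (top row) and of each gene of the other lists for esophagus minus stomach and esophagus minus intestine, with 1 row for each list and a mark for its median. Striated muscle lists and the trachea and lung list lie partly past 2 log2 units (4-fold), and most liver genes lie below 0 against intestine.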

How the data were processed

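RNA of 1 esophagus, 1 stomach and 1 intestine sample was measured on 1-colour Agilent arrays, and the organ was taken from each sample's title. Spot intensity values were deposited, and per the file headers they were extracted with Agilent Feature Extraction 10.5.1.1. The processed signal is an intensity after background subtraction and correction of spatial trends. A deposited table of log2 values, which the labels do not describe, matched the scanner values within 0.01 after 1 constant per array for at least 99.8% of probes, and its medians were −2.97 in esophagus, −3.17 in stomach and −3.47 in intestine.

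Control spots and outlier spots were left out, and the mean log2 signal of a probe's spots was set relative to the 75th percentile of the array (393 in esophagus, 334 in stomach and 1023 in intestine). Well above background were 69.3%, 67.9% and 74.0% of spots in that order, and 0 were saturated. Gene names were found through the accession each probe carries and RefSeq, with 24342 probes of 1 symbol, 16770 without and 0 with several. Each gene took its brightest probe by the mean of all 3 arrays, and entered a comparison when well above background on at least 1 of its 2 arrays. A dim organ was given the lowest level measured above background on its array, or the probe's own if higher, which makes the fold a bound. A call is a difference of at least 4-fold, with no test since 1 array was made per organ, and spots show reading error only.

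Members and lists were chosen with earlier results of these data known. Every member could be named, and of the other lists the 4 genes with the largest measured difference between esophagus and stomach and the defining markers. Some genes that this rule names are not reported here. Work was done in Python 3.11.15 with pandas 2.3.3, and normexp correction (offset 50) in R 4.3.3 with limma 3.58.1. The steps were tested on simulated data. Alternatives were normexp, quantile normalization, centring on the median or on spike-in controls, the deposited table, stricter and no filters, and the mean over probes. Promoters were from RefSeq, build GRCm38.p6, and no coordinates of the array's own design were used.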

Additional observations from a re-analysis of the deposited data

How the results depend on the processing

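No paired analysis was possible because each organ had 1 array, and for the same reason no replicate could be left out. All 29 genes at least 4-fold higher in esophagus than in stomach, and the 29 against intestine, had a positive difference under every setting that gave them a value, and 20 and 21 of them passed 4-fold under each of those. A filter on both arrays gives no value to genes entered as bounds, and under it 20 genes were called against stomach and 23 against intestine. The normexp correction lost 8 against stomach and 6 against intestine, and other settings lost 2 and 5, among them Myh7, Tnnt1, Actc1, Tnni1 and Myom1. Of the group's medians, esophagus over stomach was 2.15 with normexp, 4.14 with no filter on dim probes and 3.31 with the mean over probes. Esophagus over intestine was 2.54 with normexp, 3.42 with median centring and 2.60 with spike-in centring, and stomach over intestine was 0.89, −0.060 and −0.81 in the same order. The count of the group higher in stomach than in intestine was 0 with normexp and 1 with quantile normalization, median centring, spike-in centring or a filter on both arrays, and the Myl3 difference turned to 0.072 with normexp. Over all genes, those at least 4-fold higher in esophagus than in stomach numbered 60 with normexp and 350 with no filter, and those lower 28 and 184. Against intestine, those higher in esophagus numbered 214 with normexp, 296 with median centring and 155 with spike-in centring, and those lower 93, 455 and 2221, or 396 with no filter. Those higher in stomach than in intestine numbered 62 with normexp, 115 with median centring, 57 with spike-in centring and 289 with no filter, and those lower 51 with normexp, 788 with spike-in centring and 306 with no filter. Spike-in centring moved the median of all genes to −0.34 for esophagus over stomach, −1.37 for esophagus over intestine and −1.03 for stomach over intestine, and median centring to −0.35, −0.62 and −0.27. Of the genes called, the share higher in esophagus than in stomach was 69.8%, or 58.5% with median centring and 59.6% with spike-in centring. Against intestine it was 67.9%, or 49.9% with quantile normalization, 39.4% with median centring and 6.52% with spike-in centring. For stomach over intestine it was 47.3%, or 36.0%, 31.1% and 6.75% in the same order. The cause of these shifts was not tested. Low signals limit the folds of genes near background, and those of genes dim in 1 organ are bounds. Other folds were measured with a stomach level close to the lowest above background (−5.84), such as Tnnc1 (−5.39) and Cox6a2 (−5.52). Their log2 differences from stomach were 6.36 and 6.56, and as low as 3.53 and 3.77 in other settings. For Myh6 that difference was 6.58, and as low as 4.08. The size of such folds is therefore uncertain.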
